A study of Danio rerio with 6 samples.

Results

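The genes described here encode the ligands vegfaa (ENSDARG00000103542) and vegfab (ENSDARG00000034700) and the receptors flt1 (ENSDARG00000019371) and kdr (ENSDARG00000017321) of the vascular endothelial growth factor (VEGF) pathway. They were chosen by their identifiers and roles in the pathway, with earlier results of these data known. They are 4 of the 31540 genes in the count table and 4 of the 15899 genes that were tested. RNA was sequenced from zebrafish ovarian follicles of wild-type AB fish at the primary growth (PG) stage and at the previtellogenic (PV) stage, with 3 libraries per stage. Each library came from a pool of 3 untreated females, whose age is not given in the sources used here. The PG fraction was what a sieve of 100 μm let through, and the PV fraction was held between sieves of 180 and 250 μm. According to the methods, both stages were taken from the same groups of fish.

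VEGF-A is a secreted growth factor of vertebrates that drives the growth of blood vessels, and zebrafish carry it as the paralogs vegfaa and vegfab. It acts on receptor tyrosine kinases on endothelial cells. VEGFR2, encoded in zebrafish by kdr and its paralog kdrl, carries most of the signal, whereas VEGFR1, encoded by flt1, binds the ligand tightly and, also as a soluble form, limits how much of it reaches VEGFR2. In the ovary, vessels of the follicle wall supply the growing oocyte, and fish oocytes take up yolk protein from that blood. The comparison asked how the levels of these ligands and receptors, and the balance among them, differed between PG follicles and PV follicles, in which the oocyte has left primary growth and cortical alveoli form.

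Each library was made from whole follicles, with the oocyte and its surrounding cells together, so fewer cells of a type and less RNA per cell cannot be told apart. The libraries held between 14492086 counts (PG replicate 3) and 36603108 counts (PG replicate 1). After TMM scaling, 1 count equalled between 0.0316 and 0.08 CPM (counts scaled to a common library size), and 3 counts, taken as the limit that a count of 0 allows, equalled between 0.0948 and 0.24 CPM. All 4 genes were scarce at both stages, with at most 238 counts in any library. The CPM values are not corrected for transcript length, so levels were compared between stages and not between genes.

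All 4 genes were higher in PV follicles. The ligand vegfaa rose 3.34-fold and its paralog vegfab rose 11.2-fold. The receptor flt1, at or close to 0 in PG follicles, rose by 4.29 on the log2 scale, and the receptor kdr rose 3.17-fold with an adjusted p close to the threshold. A gene was called when edgeR's quasi-likelihood test gave a Benjamini-Hochberg adjusted p of at most 0.05 over all tested genes and the log2 fold change was at least 1 in size. All 4 genes were called higher, against 13.2% of all tested genes called higher and 5.97% called lower. For all 4 genes every PV library lay above every PG library, as it did for 36.4% of all tested genes, while 32.9% had every PV library below every PG library. The filter for low counts kept vegfab, flt1 and kdr through their PV libraries, because too few of their PG libraries reached its minimum. A call lower was hardly possible for them, so these shares of all tested genes are not a like measure.

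**Figure D1:**
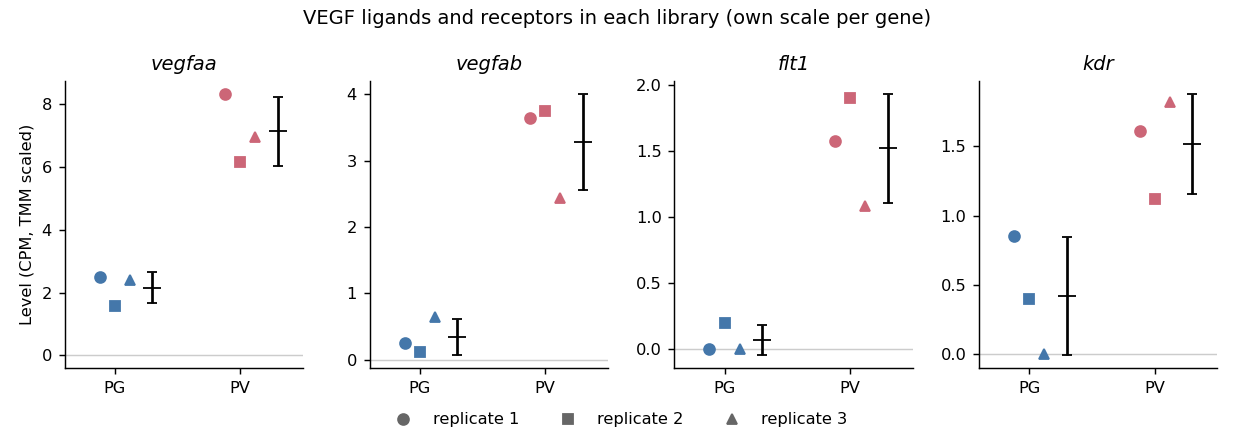
Level of each gene (CPM after TMM scaling, vertical axis, own scale per gene) in the PG and PV libraries. Each symbol is 1 library and its shape gives the replicate, and the black mark and bars are the mean and SD of 3 libraries. No gene has a PG library as high as its lowest PV library, and the smallest gap between the stages, 0.268 CPM, is that of kdr.

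The ligand vegfaa was the most counted of the 4 genes. PG replicates 1, 2 and 3 held 79, 40 and 30 counts of vegfaa, and PV replicates 1, 2 and 3 held 238, 110 and 179. These counts corresponded to 2.50, 1.59 and 2.40 CPM in PG follicles and to 8.33, 6.17 and 6.95 CPM in PV follicles. PG replicate 2 and PV replicate 2 were the lowest library of their stages, and the stages stayed 3.67 CPM apart. The mean of vegfaa was 2.16 ± 0.50 CPM (SD, n = 3) in PG follicles and 7.15 ± 1.1 CPM (SD, n = 3) in PV follicles. The log2 fold change was 1.74 with a standard error of 0.21 (adjusted p = 5.06e-05, edgeR). It stayed between 1.54 and 1.90 when each library was left out in turn. In the annotation of the GRCz12tu assembly, vegfaa overlaps a long noncoding RNA gene, LOC141378142, whose share of these counts was not tested.

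The paralog vegfab was barely detected in PG follicles. The counts of vegfab were 8, 3 and 8 in PG replicates 1, 2 and 3, and 104, 67 and 63 in PV replicates 1, 2 and 3. Scaled to depth, these were 0.253, 0.119 and 0.640 CPM in PG follicles and 3.64, 3.76 and 2.45 CPM in PV follicles. PG replicate 3, the shallowest library, was the highest of the PG libraries, and PV replicate 3 was the lowest of the PV libraries, yet they differed by 1.81 CPM. The mean of vegfab was 0.337 ± 0.270 CPM (SD, n = 3) in PG follicles and 3.28 ± 0.725 CPM (SD, n = 3) in PV follicles. The log2 fold change was 3.49 with a standard error of 0.47 (adjusted p = 0.000104, edgeR). Without each library in turn it ranged from 3.06 to 4.05. Since PG replicate 2 held no more than 3 counts, the fold from counts summed over the stage is given as well. It was 11.8, with an exact 95% interval for counting error from 7.41 to 20.0.

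The decoy receptor flt1 was detected in 1 of 3 PG libraries. Its counts were 0, 5 and 0 in PG replicates 1, 2 and 3, and 45, 34 and 28 in PV replicates 1, 2 and 3. The PG counts of 0 allow up to 0.0948 CPM in replicate 1 and up to 0.24 CPM in replicate 3, and the 5 counts of replicate 2 equalled 0.198 CPM. PV follicles held 1.57, 1.91 and 1.09 CPM. The lowest PV library was therefore well above each PG value and each PG limit. The log2 fold change of flt1 was 4.29 with a standard error of 0.81 (adjusted p = 0.00104, edgeR). Its size is poorly fixed, because it rests on 5 PG counts from 1 library. The summed counts, 5 in PG and 107 in PV follicles, gave a fold of 20.6 with an exact 95% interval from 8.54 to 64.6. Without PG replicate 2 no PG count was left, and the fitted log2 value of 8.14 is then no measure of size. The lowest value among the fits that left out 1 library was 3.52. RefSeq lists sFlt1 as a synonym of this gene, and counts per gene do not separate the soluble form from the membrane receptor.

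The receptor kdr was the least certain of the 4. PG replicates 1, 2 and 3 held 27, 10 and 0 counts of kdr, and PV replicates 1, 2 and 3 held 46, 20 and 47. These were 0.853, 0.396 and 0 CPM in PG follicles, where the 0 allows up to 0.24 CPM, and 1.61, 1.12 and 1.82 CPM in PV follicles. The PG libraries spread from 0 to 0.853 CPM, a range wider than the gap of 0.268 CPM to the lowest PV library. The mean of kdr was 0.417 ± 0.427 CPM (SD, n = 3) in PG follicles and 1.52 ± 0.360 CPM (SD, n = 3) in PV follicles. The log2 fold change was 1.66 with a standard error of 0.64 (adjusted p = 0.0442, edgeR).

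The call of kdr did not hold in 6 of 13 alternative fits, although the log2 fold change was positive in all 13. It was lost without PG replicate 2 (adjusted p = 0.118, edgeR), without PV replicate 1 (adjusted p = 0.11), without PV replicate 2 (adjusted p = 0.0580) and without PV replicate 3 (adjusted p = 0.131). It was also lost with the replicate number as a block, where the log2 fold change was 1.90 and edgeR's adjusted p was 0.0721, and in a test against a fold change of 2 (adjusted p = 0.458). Without PG replicate 1 the log2 fold change was 2.61, and without PG replicate 3 it was 1.26 (adjusted p = 0.0349, edgeR), which are the extremes of the fits that left out 1 library. In the GRCz12tu annotation kdr overlaps a protein-coding gene, LOC141379561, whose share of the kdr counts was not tested. By contrast, vegfaa was called in all 14 alternative fits, and vegfab and flt1 in all 13 that tested them.

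**Figure D2:**
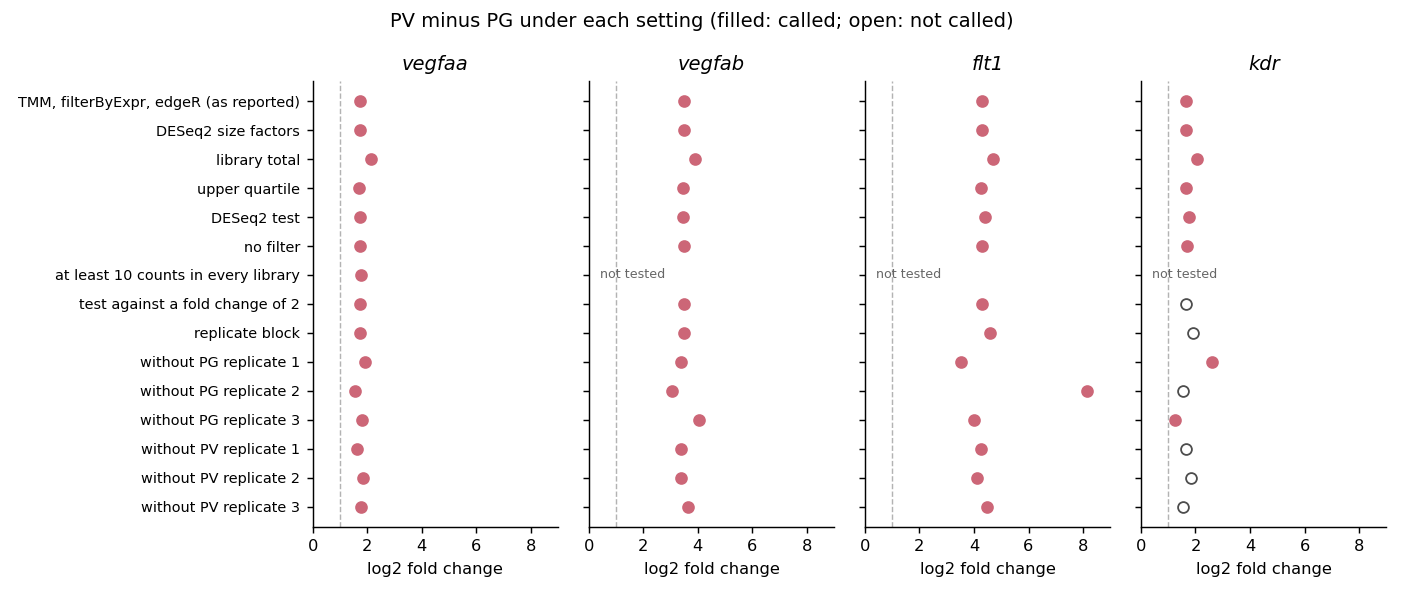
Log2 fold change (PV minus PG, horizontal axis) of each gene under the reported fit and each alternative (rows). Filled points were called and open points were not, and the dashed line marks a log2 fold change of 1. The points of vegfaa and vegfab are all filled, flt1 moves to 8.14 without the only PG library with flt1 counts, and kdr has 6 open points.

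The share of vegfab among ligand counts was higher in every PV library, although the test over libraries did not pass the threshold. In PG replicates 1, 2 and 3, vegfab made up 9.20%, 6.98% and 21.1% of the counts of both ligands. In PV replicates 1, 2 and 3 its share was 30.4%, 37.9% and 26.0%. Every PV share was above every PG share. The exact 95% interval of PG replicate 3, from 9.55% to 37.3%, included the shares of PV replicates 1 and 3, so the depth of this library does not separate it from them. Over the summed counts, vegfab was 19 of 168 ligand counts in PG follicles, or 11.3% (exact 95% interval 6.95% to 17.1%), and 234 of 761 in PV follicles, or 30.7% (27.5% to 34.2%).

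On the log2 scale, with 0.5 counts added to each gene, the vegfab to vegfaa ratio was -3.23, -3.53 and -1.84 in PG replicates 1, 2 and 3. It was -1.19, -0.71 and -1.50 in PV replicates 1, 2 and 3. The means were -2.87 ± 0.90 and -1.13 ± 0.40 (SD, n = 3 each), a difference of 1.73, so that the ratio was 3.33-fold higher in PV follicles. An exact two-sided permutation test over libraries gave p = 0.1, which is the smallest that 3 against 3 libraries can give and is above the threshold. The counts of vegfab nevertheless stayed below those of vegfaa in all 6 libraries, without correction for transcript length.

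The balance of vegfaa and vegfab counts to flt1 and kdr counts showed no change larger than the spread. The receptor paralog kdrl was not part of it. It held 309, 232 and 68 counts in PG replicates 1, 2 and 3 and 338, 247 and 251 in PV replicates 1, 2 and 3. A ratio that includes kdrl was not tested. In PG replicates 1 and 2 the receptors flt1 and kdr gave 23.7% and 25.9% of the counts of all 4 genes. PG replicate 3 held 38 ligand counts and no count of flt1 or kdr, a share of 0% with an exact upper limit of 9.25%. In PV replicates 1, 2 and 3 the receptor share was 21.0%, 23.4% and 23.7%. Apart from PG replicate 3, the libraries of both stages thus lay between 21.0% and 25.9%. Summed over the stage there were 168 ligand and 42 receptor counts in PG follicles, a ratio of 4.0, and 761 and 220 in PV follicles, a ratio of 3.46. The receptor share of the sums was 20.0% (exact 95% interval 14.8% to 26.1%) in PG and 22.4% (19.9% to 25.2%) in PV follicles.

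The log2 ligand to receptor ratio was 1.65, 1.46 and 5.29 in PG replicates 1, 2 and 3 and 1.90, 1.69 and 1.68 in PV replicates 1, 2 and 3. The value of 5.29 rests on the counts added to receptors that were at 0. The stages overlapped, and the difference of -1.04 had a p of 1 in the exact two-sided permutation test. Without PG replicate 3 the difference turned to 0.20 (exact permutation p = 0.1, the smallest that 3 against 2 libraries can give), so its sign depended on that library.

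The share of flt1 among receptor counts was higher in every PV library than in both PG libraries that held a count of flt1 or kdr. The share of flt1 among the counts of flt1 and kdr was 0 of 27 in PG replicate 1, with an exact upper limit of 12.8%, and 5 of 15, or 33.3% (exact 95% interval 11.8% to 61.6%), in PG replicate 2. PG replicate 3 held neither receptor. In PV replicates 1, 2 and 3 the flt1 share was 49.5%, 63.0% and 37.3%. PG replicate 1 lay below every PV library beyond counting error, whereas the interval of PG replicate 2 included PV replicates 1 and 3. In the sums, flt1 was 11.9% (3.98% to 25.6%) of 42 receptor counts in PG follicles and 48.6% (41.9% to 55.4%) of 220 in PV follicles. Leaving out PG replicate 1, which supplied 27 of those 42, raised the PG share to 33.3%.

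As a log2 ratio, kdr to flt1 was 5.78, 0.93 and 0.00 in PG replicates 1, 2 and 3, where the 0.00 comes from the added counts alone. It was 0.03, -0.75 and 0.74 in PV replicates 1, 2 and 3. PG replicates 1 and 2 lay above every PV library, and only PG replicate 3 did not. The difference of -2.23 had a p of 0.3 in the exact two-sided permutation test, a value that depends on the ratio set by added counts. Without PG replicate 3 the difference was -3.35 (exact permutation p = 0.1, the smallest possible), and without PG replicate 1 it was -0.46 (exact permutation p = 0.5), so its size rested on single PG libraries. These 3 ratios were the only ones tested, and none passed the threshold without adjustment.

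**Figure D3:**
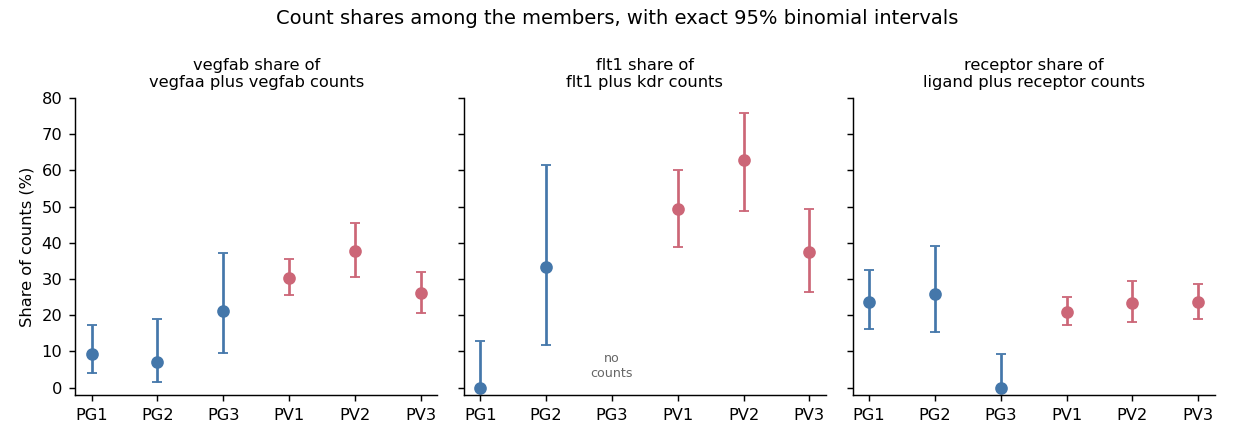
Share of counts (percent, vertical axis) in each PG and PV library, for vegfab among the ligands (left), flt1 among the receptors (middle) and receptors among all 4 genes (right). Bars are exact 95% binomial intervals, which cover counting error only. The vegfab share is higher in all PV libraries, and PG replicate 3 stands apart in the right panel with no count of flt1 or kdr.

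The rest of the VEGF family did not move as a block. Of 6 other ligands looked for, 5 had an identifier and 1, vegfc, the lymphatic growth factor, passed the filter. PG replicates 1, 2 and 3 held 12, 14 and 4 counts of vegfc and PV replicates 1, 2 and 3 held 24, 10 and 10, which overlapped once scaled (log2 fold change 0.49, standard error 0.52, adjusted p = 0.433, edgeR). Of the others, vegfba held 3 counts in PG and 16 in PV follicles summed, vegfd held 5 counts, all in PV replicate 3, PGF held between 0 and 21 counts in a library at either stage, and vegfbb had no count. They were too low to test.

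Of the 6 other receptors and co-receptors, all tested, 1 was called higher, 1 was called lower and 4 were not called. Each call was 16.7% of the list, beside 13.2% of all tested genes called higher and 5.97% called lower. The median log2 fold change of these 6 was -0.05, beside 0.03 over all tested genes. The called rise was that of nrp2a, a neuropilin that binds VEGF together with the kinase receptors. In PG replicates 1, 2 and 3 it held 47, 35 and 15 counts and in PV replicates 1, 2 and 3 it held 183, 123 and 133, a rise of 4.43-fold from 1.36 ± 0.145 to 6.15 ± 0.893 CPM (SD, n = 3 each; adjusted p = 8.32e-06, edgeR). The called fall was that of flt4, the VEGFR3 gene, whose product is the receptor for Vegfc on venous and lymphatic endothelium. Its PG libraries held 669, 562 and 240 counts and its PV libraries 215, 144 and 211, so that flt4 was 2.65 times lower in PV follicles, at 7.93 ± 0.355 against 20.9 ± 1.56 CPM (SD, n = 3 each; adjusted p = 7.16e-07, edgeR). With library totals in place of TMM, the log2 change of flt4 was -0.99, just short of the threshold.

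The main VEGFR2 paralog kdrl held 309, 232 and 68 counts in PG replicates 1, 2 and 3 and 338, 247 and 251 in PV replicates 1, 2 and 3. The levels ran from 5.44 to 9.77 CPM in PG and from 9.74 to 13.8 CPM in PV follicles, so that PG replicate 1 and PV replicate 3 met. The log2 fold change of kdrl was 0.49 with a standard error of 0.20 (adjusted p = 0.0532, edgeR), which was not called. The co-receptor genes nrp1a (log2 fold change -0.38), nrp1b (-0.62) and a further neuropilin 2 gene (ENSDARG00000038446, 0.28) overlapped between stages and were not called. In each PG library kdrl held more counts than flt1 and kdr together, as it did in each PV library, again without correction for length.

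**Figure D4:**
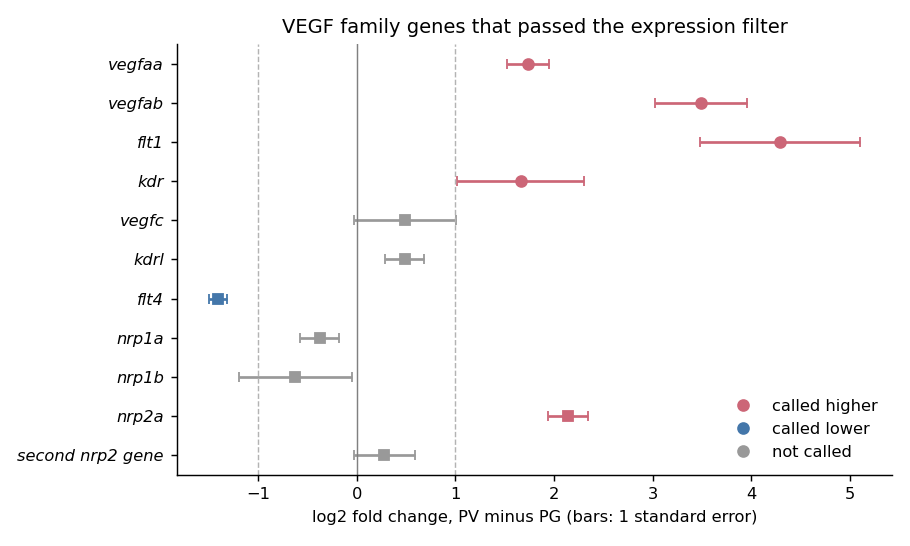
Log2 fold change (PV minus PG, horizontal axis) of the VEGF family genes that passed the expression filter, with bars of 1 standard error. Circles are vegfaa, vegfab, flt1 and kdr, squares are other family members, and dashed lines mark log2 fold changes of -1 and 1. The 4 circles and nrp2a lie above 1, flt4 lies at -1.40 and the others lie between the dashed lines.

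Below the receptors, VEGFR2 signals through phospholipase C gamma and calcineurin, through Ras and the MAP kinases, and through PI3 kinase and Akt. Of 66 signalling genes in the list, 59 had an identifier and 50 were tested, and 9 of these (18.0%) were called higher, beside 13.2% of all tested genes. Their median log2 fold change was 0.23. None was called lower in the reported edgeR fit or by DESeq2, although 6 had a negative change and 28 a positive one at an unadjusted p under 0.05 in edgeR's test. An NFATC2 gene (ENSDARG00000100927, log2 fold change -0.97) was called lower with the replicate block (-1.01) and without PG replicate 1 (-1.11), PV replicate 1 (-1.02) or PV replicate 3 (-1.14). Of 7 tested genes for PI3 kinase subunits, 4 were called higher, beside 13.2% of all tested genes. This group was formed after its values were seen, so the count does not set it apart. The 4 were the catalytic pik3ca (log2 fold change 1.72) and pik3cd (1.04) and the regulatory pik3r1 (1.22) and pik3r3b (1.03). The others had log2 fold changes of -0.08 (pik3cb), 0.95 (pik3r2) and 0.22 (pik3r3a). For pik3ca, which held 202, 122 and 73 counts in PG replicates 1, 2 and 3 and 479, 358 and 506 in PV replicates 1, 2 and 3, this was a 3.30-fold rise (adjusted p = 1.54e-06, edgeR).

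The other called signalling genes were map2k2b, a MAP kinase kinase (1.39 on the log2 scale), hrasa, a Ras gene (1.04), ppp3r1b, a calcineurin regulatory subunit (1.05), hspb1, a small heat shock protein gene (1.09), and a paxillin gene (ENSDARG00000060766, 2.76). This paxillin gene had 12, 0 and 0 counts in PG replicates 1, 2 and 3 and 44, 17 and 21 in PV replicates 1, 2 and 3. The filter kept it through its PV libraries, so a call lower was hardly possible for it. A further paxillin gene (ENSDARG00000088590) held 3866, 3187 and 1387 counts in the PG libraries. In the PV libraries it held 2996, 1692 and 2469. It was lower in every PV library but not called (log2 fold change -0.28, adjusted p = 0.00252, edgeR). For other genes of the same routes the log2 fold change was under 1 in size, and they were not called. It was 0.22 for plcg1 (adjusted p = 0.000864, edgeR), -0.19 for mapk3 (adjusted p = 0.00373) and 0.20 for akt1 (adjusted p = 0.535). The calls of map2k2b, pik3ca and pik3r1 held whichever library was left out, and the other 6 lay near a threshold and were lost in 1 or 2 of these fits. The number called higher fell to 6 without PV replicate 1. With library totals it was 14, and in a test against a fold change of 2 it was 3.

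Transcription of VEGF-A is known to be raised by hypoxia-inducible factors when oxygen is low. Of 13 tested genes of this oxygen sensing system, 2 (15.4%, beside 13.2% of all tested genes) were called higher, also in every fit that left out 1 library, and the median log2 fold change was 0.30. They were epas1a, which encodes a HIF2 alpha subunit, and arnt2, which encodes a partner subunit. PG replicates 1, 2 and 3 held 3, 2 and 0 counts of epas1a and PV replicates 1, 2 and 3 held 14, 20 and 16 (log2 fold change 3.28, standard error 0.74, adjusted p = 0.00303, edgeR). The filter kept epas1a through its PV libraries, so a call lower was hardly possible for it. For epas1a the 13.2% of all tested genes is therefore not a like measure. The counts of arnt2 were 533, 406 and 128 in PG and 889, 636 and 859 in PV libraries (log2 fold change 1.17, standard error 0.14). A further EPAS1 gene (ENSDARG00000057671) held 505, 397 and 220 counts in the PG libraries and 494, 265 and 397 in the PV libraries. Its stages overlapped and it was not called (log2 fold change -0.04, adjusted p = 0.713, edgeR). The HIF1 alpha genes hif1aa and hif1ab also overlapped between stages, with log2 fold changes of 0.37 and -0.18. The gene vhl, whose product targets the alpha subunits for degradation, had a log2 fold change of 0.30. No gene of this list was called lower by edgeR or DESeq2, and 1 had a negative change at an unadjusted p under 0.05 in edgeR's test.

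Angiopoietins and Tie receptors form the other main ligand and receptor system of endothelium. Of its 4 tested genes, 2 were called higher, the ligand angpt1 and the receptor tie1, beside 13.2% of all tested genes. With 0 and 2 counts in PG replicate 3, angpt1 and tie1 could not pass the filter on their PG libraries alone. The share of all tested genes is therefore not a like measure for either call. PG replicates 1, 2 and 3 held 7, 10 and 0 counts of angpt1 and PV replicates 1, 2 and 3 held 32, 13 and 45 (log2 fold change 2.34, adjusted p = 0.0109, edgeR). The counts of tie1 were 29, 16 and 2 in PG and 32, 37 and 43 in PV libraries (log2 fold change 1.35, adjusted p = 0.0373, edgeR). Values of the other tested genes overlapped, with log2 fold changes of -0.39 for tek, the Tie2 receptor gene, and -0.67 for angpt4, and ANGPT2 and angpt2b were too low to test. Neither call was firm. Without PV replicate 3 no gene of this list was called, and 1 was called without PG replicate 2, without PG replicate 3 or without PV replicate 2, while the replicate block left 1 call (tie1 then had an adjusted p of 0.0699 in edgeR).

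Markers of several cell types also differed between the stages. Among all tested genes, 13.2% were called higher and 5.97% were called lower. Of 14 tested endothelial markers, 7 were called higher (cdh5, fli1, esama, she, plvapb, ramp2 and clec14a) and vwf was called lower. The filter kept fli1, she, ramp2 and clec14a through their PV libraries, and vwf through its PG libraries. A call in the other direction was hardly possible for genes so kept, so the shares of all tested genes are not a like measure for them. The list had a median of 0.97 on the log2 scale. The defining endothelial gene cdh5, VE-cadherin, held 71, 51 and 30 counts in PG replicates 1, 2 and 3 and 189, 96 and 143 in PV replicates 1, 2 and 3, a 2.66-fold rise (adjusted p = 6.71e-05, edgeR). The summed level of the endothelial list was 55.3 to 59.2 CPM in PG and 58.9 to 63.7 CPM in PV libraries, so the sums of the stages overlapped although 7 members were called higher. That sum was mostly erg, with means of 22.2 CPM in PG and 20.4 CPM in PV follicles, and stab2, with means of 20.9 and 13.7 CPM. Neither was called (log2 fold change -0.13 for erg and -0.60 for stab2, adjusted p = 0.187 and 0.000207, edgeR). The sum thus says little about the other markers. Leaving out PV replicate 1 left 3 endothelial markers called higher and leaving out PV replicate 3 left 4. The calls of fli1, ramp2 and vwf were each lost in 4 of the 6 fits that left out 1 library. Those of fli1 (adjusted p = 0.0589, edgeR) and ramp2 (adjusted p = 0.0622) were lost with the replicate block, and that of vwf was lost with library totals (log2 change -0.85).

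Of 5 tested markers of mural cells, the smooth muscle and pericytes around vessels, acta2, tagln, rgs5a and myh11a were called higher and cspg4 was called lower. The shares of all tested genes were 13.2% called higher and 5.97% called lower. With 4 counts of tagln and no count of rgs5a or myh11a in PG replicate 3, tagln, rgs5a and myh11a could not pass the filter on their PG libraries alone. These shares are therefore not a like measure for them. The summed mural level was 6.48 to 11.0 CPM in PG and 24.2 to 27.2 CPM in PV libraries. Markers of the follicle cells around the oocyte were called higher in 6 of 6 tested cases, beside 13.2% of all tested genes. They included fshr, the receptor for follicle stimulating hormone, and cyp19a1a, aromatase. Their median change was 3.91 on the log2 scale. Their summed level was 3.84 to 7.22 CPM in PG and 74.1 to 90.3 CPM in PV libraries. The filter kept fshr, amh and hsd17b1 through their PV libraries, so a call lower was hardly possible for them. The follicle cell marker lhcgr, low at both stages, was not tested. Of 5 tested theca and stroma markers col1a2, pdgfra and dcn (60.0%) were called higher, beside 13.2% of all tested genes. The summed level of that list was nevertheless 256 to 264 CPM in PG and 163 to 171 CPM in PV libraries. That sum was mostly cyp17a1, an enzyme of steroid synthesis, at 242 ± 6.55 CPM in PG and 129 ± 2.65 CPM in PV follicles (SD, n = 3 each). It passed the p threshold but not that of size, so it was not called (log2 fold change -0.91, adjusted p = 5.52e-08, edgeR). Without cyp17a1 the sum was 13.6 to 21.3 CPM in PG and 36.7 to 40.2 CPM in PV libraries. The sums of the mural list and the follicle cell list were thus higher in every PV library. That of the full theca and stroma list was lower in every PV library. It was higher only without cyp17a1, which was left out after its values were seen. The endothelial sums overlapped.

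Among markers of blood and of the oocyte no gene was called higher, beside 13.2% of all tested genes. With 9 tested genes in each list, this does not set them apart from that share. Called lower were 11.1% of the blood markers and 22.2% of the oocyte markers, beside 5.97% of all tested genes. Of 9 tested blood markers none was called higher by edgeR or DESeq2, none had a positive change at an unadjusted p under 0.05, and hbaa1, an alpha globin gene, was called lower. The summed blood level was 32.1 to 37.2 CPM in PG and 14.7 to 21.8 CPM in PV libraries. The largest part of that sum was hbaa1, with means of 21.3 CPM in PG and 8.18 CPM in PV follicles. Positive log2 fold changes, none called, were those of lcp1 (0.87), mpeg1.1 (0.79) and ptprc (0.06). The other tested blood markers had negative ones. Of 9 tested oocyte markers buc and zar1 were called lower and none higher by edgeR or DESeq2, with 1 positive change at an unadjusted p under 0.05. With library totals in place of TMM, the calls of hbaa1 (log2 change -0.96) and buc (-0.66) were lost. The oocyte sum was 5467 to 5701 CPM in PG and 2825 to 2960 CPM in PV libraries. It was mostly buc, zar1 and org, with means of 2281, 1569 and 931 CPM in PG and 1080, 482 and 601 CPM in PV follicles. The log2 fold change was -0.05 for gdf9, 0.04 for dazl and 0.29 for ddx4. In this list 6 genes had a negative change at an unadjusted p under 0.05 in edgeR's test. The part that these differences in cell type markers have in the levels of vegfaa, vegfab, flt1 and kdr was not tested.

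**Figure D5:**
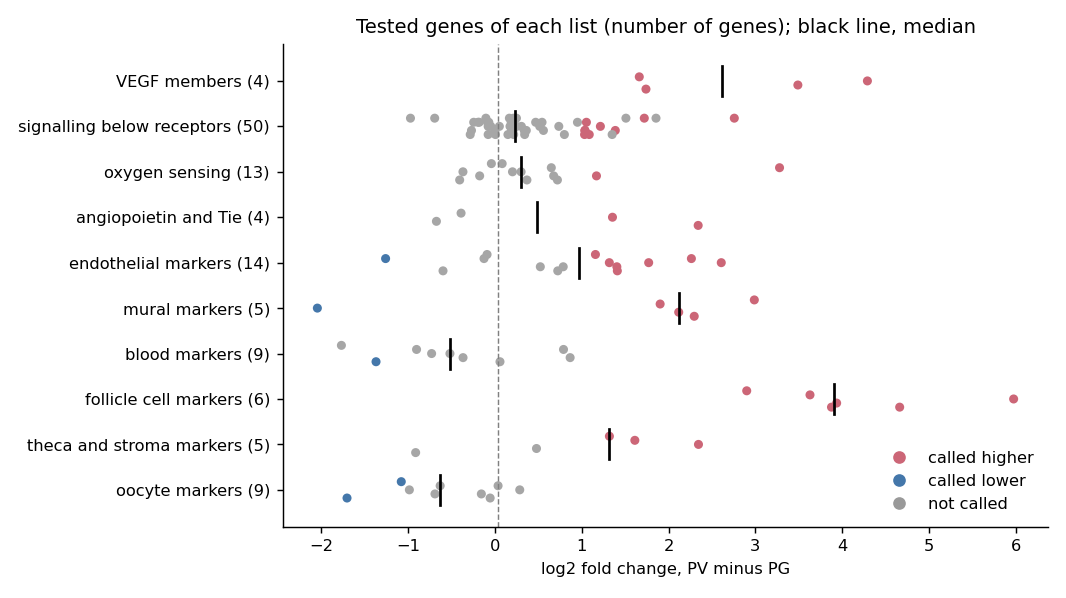
Log2 fold change (PV minus PG, horizontal axis) of every tested gene, with 1 row per list and the number of tested genes in brackets. Colours give genes called higher, called lower or not called, black lines are list medians and the dashed line is the median of all tested genes, 0.03. The follicle cell markers have a median of 3.91, and the signalling genes lie around 0.23.

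The genes whose pattern over the 6 libraries was nearest to each of the 4 were found by the root mean square difference of centred log2 CPM among 15350 genes. As these genes were picked for their likeness, no test is attached to it. For vegfaa they were si:ch211-156j16.1 (0.118), syne1b (0.132) and enpp5 (0.133). The nearest genes of vegfab lay further away, namely trim66 (0.324), zgc:158404 (0.337) and egr2b (0.357). For flt1 they were si:ch73-193i22.1 (0.156), znf516 (0.234) and sgk494a (0.256), each of which had, like flt1, PG counts in replicate 2 alone. For kdr they were agap3 (0.135), a PLA2G4A gene (ENSDARG00000024546, 0.170) and evlb (0.173), which held 2, 0 and 0 counts in PG replicate 3. Among the 4 genes themselves the distance was smallest between vegfaa and vegfab (0.866) and largest between vegfab and kdr (1.60), wider than any of these.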

How the data were processed

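RNA from 3 PG and 3 PV libraries was analysed, grouped by the stage in the labels. The raw count of each gene was deposited by the authors, who aligned reads to GRCz10 with TopHat2, assembled them with StringTie and derived counts from coverage with prepDE after FastQC (version 0.11.5). They also deposited a normalized signal, the counts divided by 1 DESeq2 size factor per library, used here only as a check. The labels name a TruSeq kit and the methods a directional NEBNext kit, so strandedness is not settled and reads of overlapping genes may not be separated. No column was left without a sample (0 columns). Among counts from 1 to 24, between 51.9% and 55.4% were even, so that a fragment may give more than 1 count and counting intervals are then too narrow.

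Genes were filtered with filterByExpr (minimum count 10, minimum total 15), scaled by TMM and tested with the quasi-likelihood method of edgeR (version 4.0.16, limma 3.58.1, R 4.3.3) with stage as the factor and Benjamini-Hochberg adjustment over 15899 genes. A gene passed when as many libraries as a stage holds reached the minimum, so the libraries of a single stage could carry it. A gene so carried could hardly be called in the other direction. Ratios, with 0.5 counts added, were tested by exact two-sided permutation in scipy 1.17.1 (numpy 2.4.6, pandas 2.3.3), and shares have exact Clopper-Pearson 95% intervals. Fits were tested on simulated data. Alternatives were other scalings, DESeq2 (version 1.42.0), other filters, a test against a fold change of 2, a fit with the replicate block and leaving out each library. Figures were drawn with matplotlib 3.10.9.

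The 4 genes, the gene lists and the tests were chosen with earlier results of these data known. Named genes were the 4 genes, every called list member, the members behind small counts and the 3 most alike genes per gene. The genes plcg1, mapk3, akt1, an NFATC2 gene, the uncalled pik3 genes, cyp17a1, hif1aa, hif1ab and vhl were named after their values were seen. So were erg, stab2, org, gdf9, dazl, ddx4, lcp1, mpeg1.1, ptprc, the further EPAS1 gene and the further paxillin gene. Symbols came from a gene name table that matched 26073 of 31540 identifiers, with RefSeq synonyms (GRCz12tu). Coordinates, sequences and promoter motifs were not analysed here, and ratios are of plain counts without transcript length. Libraries are pools of 3 fish, and p-values measure the spread between these pools. Whether equal replicate numbers mark the same fish is not stated. Same-numbered deviations had a mean correlation of 0.00099 across 12229 genes.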

Additional observations from a re-analysis of the deposited data

How the results depend on the processing

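Leaving out each library in turn gave log2 fold changes of 1.54 to 1.90 for vegfaa, 3.06 to 4.05 for vegfab, 3.52 to 8.14 for flt1 and 1.26 to 2.61 for kdr, and between 1930 and 2214 genes called higher and 854 to 987 lower, against 2105 and 949 as reported. The kdr change of 1.66 was not called against a fold change of 2, nor was the 1.90 of the fit with the replicate block. That block changed no call of vegfaa, vegfab or flt1. The deviations of same-numbered libraries from their stage means had correlations of only -0.0149 to 0.0230. Those of different-numbered libraries had a mean of -0.000393. According to the methods both stages came from the same groups of fish. With values near 0 for both, the check cannot decide whether equal numbers pair the libraries. The reported fit used stage alone. The ligand to receptor difference reversed from -1.04 to 0.20 without PG replicate 3, by removal of the library with no count of flt1 or kdr. It was -1.71 at the other end, without PG replicate 2. The kdr to flt1 difference ranged from -3.35 to -0.46 and the vegfab to vegfaa difference from 1.40 to 2.25 when a library was left out. Library totals in place of TMM gave 3664 genes higher and 415 lower, with 89.8% of calls higher against 68.9%, and moved the median of all genes from 0.03 to 0.45. All 4 VEGF genes were still called with a change above that shift. At least 10 counts in every library gave 1223 higher and 614 lower and left only vegfaa testable of the 4. The test against a fold change of 2 gave 1025 and 410. Length correction could not be applied, so plain counts were the only form of the ratios. Depth limits flt1 and kdr in PG replicate 3, where their count of 0 allows up to 0.24 CPM.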
